A study of Mus musculus with 2 samples.

Results

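Small leucine-rich proteoglycans were compared between osteoblastic cells of Ebf2-deficient and heterozygous mouse embryos. The family was followed through 10 genes, Dcn, Bgn, Lum, Fmod, Omd, Ogn, Prelp, Aspn, Epyc and Kera, of 18194 genes on the array. Their members were all probe sets, the short oligonucleotide groups that report a transcript, annotated with exactly 1 gene symbol from this set. That gave 21 of the 45101 probe sets on the array, with 1 probe set for 4 of the genes and several for the other 6.

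The Ebf2-/- group was 1 array and the Ebf2+/- group was 1 array, both of C57Bl/6 embryos at stage E18.5. Cells came from tibia and femur, and in both groups the Ebf2 locus carried a lacZ marker. The cells were loaded with FDG, a beta-galactosidase substrate that turns fluorescent, sorted for the marker, and expanded in culture without passaging, so the preparation is defined by activity of the Ebf2 locus and by growth in a dish. The labels name 3 mice a genotype; pooling of their RNA is not stated. No wild-type array was analysed here, and the Ebf2+/- cells carry 1 altered Ebf2 allele themselves.

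Small leucine-rich proteoglycans are secreted matrix proteins with a core of leucine-rich repeats, and most carry chondroitin, dermatan or keratan sulphate chains. They bind collagen fibrils and regulate how thick and how evenly spaced the fibrils become, and several also hold growth factors of the TGF-beta family. In bone they are part of the unmineralised matrix laid down by osteoblasts, and some are better known from tendon, cartilage or cornea.

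The values are MAS5 signals, a linear intensity scaled to a common target on each array. A signal counted as above background when it exceeded the 95th percentile of 86 receptor probe sets for smell and taste, 23.8 on the Ebf2-/- array and 17.8 on the Ebf2+/- array. A single array a genotype gives no spread between animals, so the differences were not tested and a 2-fold ratio serves only as a size. Probe sets of the same gene scattered around their mean log2 ratio with an SD of 0.44 (a factor of 1.36, pooled from 4119 genes). This describes scatter between probe sets within the arrays only, and not error between repeat arrays. The targeted transcript, Ebf2, stood at 20.6, 25.1 and 14.4 in Ebf2-/- cells over its 3 probe sets, against 24.9, 14.4 and 13.7 in Ebf2+/- cells, which is close to background and does not check the labels. Of 12 listed osteoblast markers 8 were analysed here, so they give only a partial check of the cell type. Col1a1, Col1a2, Sparc, Alpl and Sp7 were above background, and Ibsp, Dmp1 and Phex were not.

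In Ebf2-/- cells 7 of the 9 measured small proteoglycan genes had the higher signal and 2 the lower one. Of all measured genes 52.1% were higher. Epyc was 5.97-fold and Dcn 4.43-fold higher. Aspn, Lum, Prelp, Bgn and Ogn were higher by 1.17-fold to 1.87-fold, Omd was 1.12-fold lower and Fmod 1.63-fold lower. Kera was not above background on either array. At least 2-fold higher signals were thus seen for 2 of 9 members, against a background of 6.3% of the 11785 measured genes, and at least 2-fold lower signals for 0 of 9, against 3.46%. The median log2 ratio of the 9 members was 0.76, beside 0.03 over all measured genes. From 0, 7 members lay farther than the SD between probe sets. The share of all genes that did so was not computed, so this count is not read as a trait of the family. For scale, 2039 of the 11785 measured genes had a log2 ratio at or above the 0.54 of Bgn, 1 of these 7. Each gene is represented in these counts by its brightest probe set, taken by mean log2 signal. Fewer cells of a type and less RNA per cell cannot be told apart in such bulk samples.

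**Figure D1:**
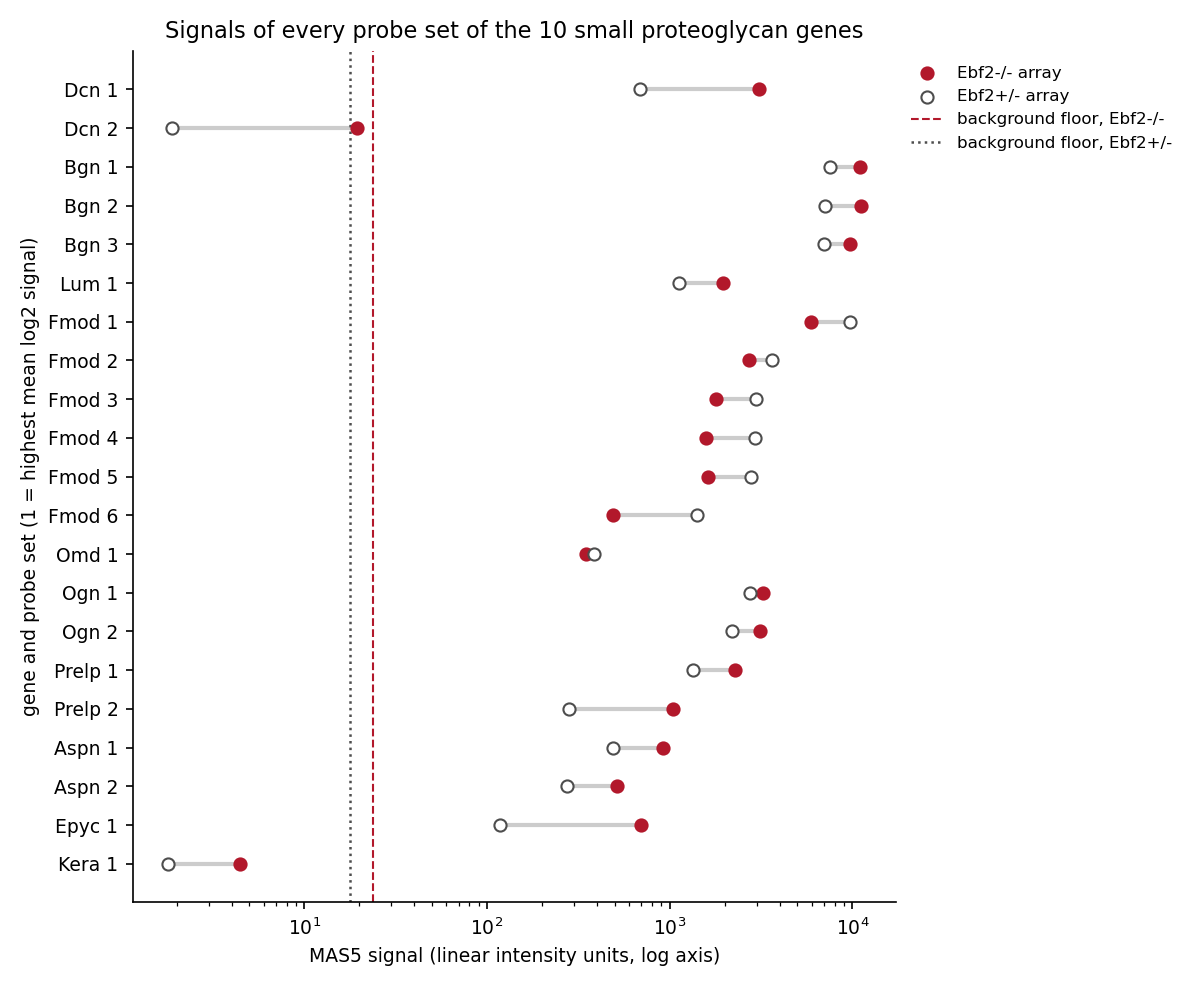
MAS5 signal (log axis) of each of the 21 probe sets on the Ebf2-/- array (filled red) and the Ebf2+/- array (open), with the background floor of each array as a vertical line. Each point is a single measurement, and signals are compared along a row only. The knockout point lies to the right of the heterozygote point for Epyc and Dcn by the widest margins among genes above the floor and to the left in all 6 rows of Fmod, while Kera and the second Dcn row lie below the floors.

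The class I proteins decorin, biglycan and asporin form a family branch defined by their sequence. All 3 were higher in Ebf2-/- cells, with a median log2 ratio of 0.90. Decorin, encoded by Dcn, coats type I collagen fibrils with a single glycosaminoglycan chain and binds TGF-beta. Its bright probe set had a signal of 3064 in Ebf2-/- cells, against 692 in Ebf2+/- cells. This log2 ratio of 2.15 was 4.85 times the SD between probe sets, and 99.2% of measured genes had a lower ratio. A second Dcn probe set read 19.4 in Ebf2-/- cells and 1.88 in Ebf2+/- cells, below the floor on each array, so the fold rests on 1 probe set.

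Biglycan, encoded by Bgn, is the closest relative of decorin and is abundant in bone matrix. Its 3 probe sets had signals of 11057, 11167 and 9747 in Ebf2-/- cells, against 7581, 7108 and 6974 in Ebf2+/- cells. All 3 were higher in the knockout, by 1.40-fold to 1.57-fold, and their log2 ratios spread by an SD of 0.09. The difference was therefore alike over its probe sets and small, 1.23 times the pooled SD for the brightest.

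Asporin, encoded by Aspn, carries a stretch of aspartate residues in place of a glycosaminoglycan attachment site and binds collagen and TGF-beta. Its probe sets read 914 and 517 in Ebf2-/- cells, against 489.6 and 274 in Ebf2+/- cells. The ratios of its 2 probe sets were nearly the same, 1.87-fold and 1.89-fold higher in the knockout, and both stayed just under 2-fold.

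The class II proteins, which typically carry keratan sulphate, were split. Of 4 measured members 2 were higher and 2 lower in Ebf2-/- cells, with a median log2 ratio of 0.30. Lumican, encoded by Lum, regulates fibril thickness in cornea and skin. Its single probe set read 1954 in Ebf2-/- cells, against 1121 in Ebf2+/- cells, which is 1.74-fold higher.

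Prelp encodes a proline- and arginine-rich protein that lacks glycosaminoglycan chains and anchors basement membranes to collagen. Its brighter probe set had 2266 in Ebf2-/- cells, against 1333 in Ebf2+/- cells, 1.70-fold higher. The other one had 1039 in Ebf2-/- cells, against 282 in Ebf2+/- cells, 3.69-fold higher. The direction was shared and the size was not: the log2 ratios had an SD of 0.79, wider than the pooled 0.44. The suffix of the brighter probe set, _s_at, marks oligonucleotides that can match more than 1 transcript. Without such probe sets Prelp passed 2-fold as well (log2 ratio 1.88), and as a mean over its probe sets it had a log2 ratio of 1.32.

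Fibromodulin, encoded by Fmod, is a collagen-binding protein best known from tendon and cartilage, and had the lowest ratio of the family. Its 6 probe sets read 5970.2, 2718, 1789, 1585, 1629.8 and 487 in Ebf2-/- cells, against 9720.2, 3625, 2978, 2939, 2783 and 1408 in Ebf2+/- cells, in the same order. All 6 were lower in the knockout, by 1.33-fold to 2.89-fold, and only the dimmest of them passed 2-fold. Of the 6, 5 end in _x_at, a suffix for oligonucleotides that may also bind other sequences, and the remaining one gave the smallest difference, 1.33-fold. They report the same gene and are not independent measurements of it. The brightest had a log2 ratio of -0.70, and 7.54% of measured genes had a lower one.

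Osteomodulin, encoded by Omd and also called osteoadherin, is a keratan sulphate proteoglycan of mineralised bone made by mature osteoblasts. It had 347 in Ebf2-/- cells, against 388 in Ebf2+/- cells. The log2 ratio of -0.16, from 1 probe set, was smaller than the pooled SD between probe sets of the same gene. Error between repeat arrays was not measured. Keratocan, encoded by Kera and typical of corneal stroma, had 4.44 in Ebf2-/- cells, against 1.79 in Ebf2+/- cells, both below the floor, and no fold is given.

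The class III members were both higher. Epiphycan, encoded by Epyc, is a dermatan sulphate proteoglycan of growth plate cartilage and had the highest ratio of the family. Its single probe set read 699 in Ebf2-/- cells, against 117 in Ebf2+/- cells, a log2 ratio of 2.58. This was 5.83 times the SD between probe sets, and 99.6% of measured genes had a lower ratio. Osteoglycin, encoded by Ogn and also called mimecan, is secreted by bone and muscle cells. Its probe sets had 3228 and 3127 in Ebf2-/- cells, against 2759 and 2189.8 in Ebf2+/- cells. The brighter one differed by less than the pooled SD (log2 ratio 0.23) and the other by slightly more (0.51).

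Over all 19 member probe sets above the floor on both arrays, 12 were higher and 7 lower in Ebf2-/- cells. At least 2-fold higher were 3 of them, for Dcn, Epyc and Prelp, against 6.1% of the 16457 probe sets of single genes above both floors. At least 2-fold lower was 1, for Fmod, against 3.31%. All 7 lower probe sets belonged to Fmod and Omd, and no member had probe sets in opposite directions.

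The members lie in gene clusters, and neighbours did not share a common ratio. By the RefSeq gene order of GRCm38.p6, Dcn, Lum, Kera and Epyc follow each other on chromosome 10 with no other protein-coding gene between them. In this cluster the genes at the ends, Dcn and Epyc, had the highest ratios of the family, Lum stayed under 2-fold and Kera was not above background. Aspn, Omd and Ogn follow each other on chromosome 13, with log2 ratios of 0.90, -0.16 and 0.23. Prelp and Fmod are neighbours on chromosome 1, on opposite strands, and differed in direction with log2 ratios of 0.76 and -0.70. Bgn is the only member on the X chromosome.

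**Figure D2:**
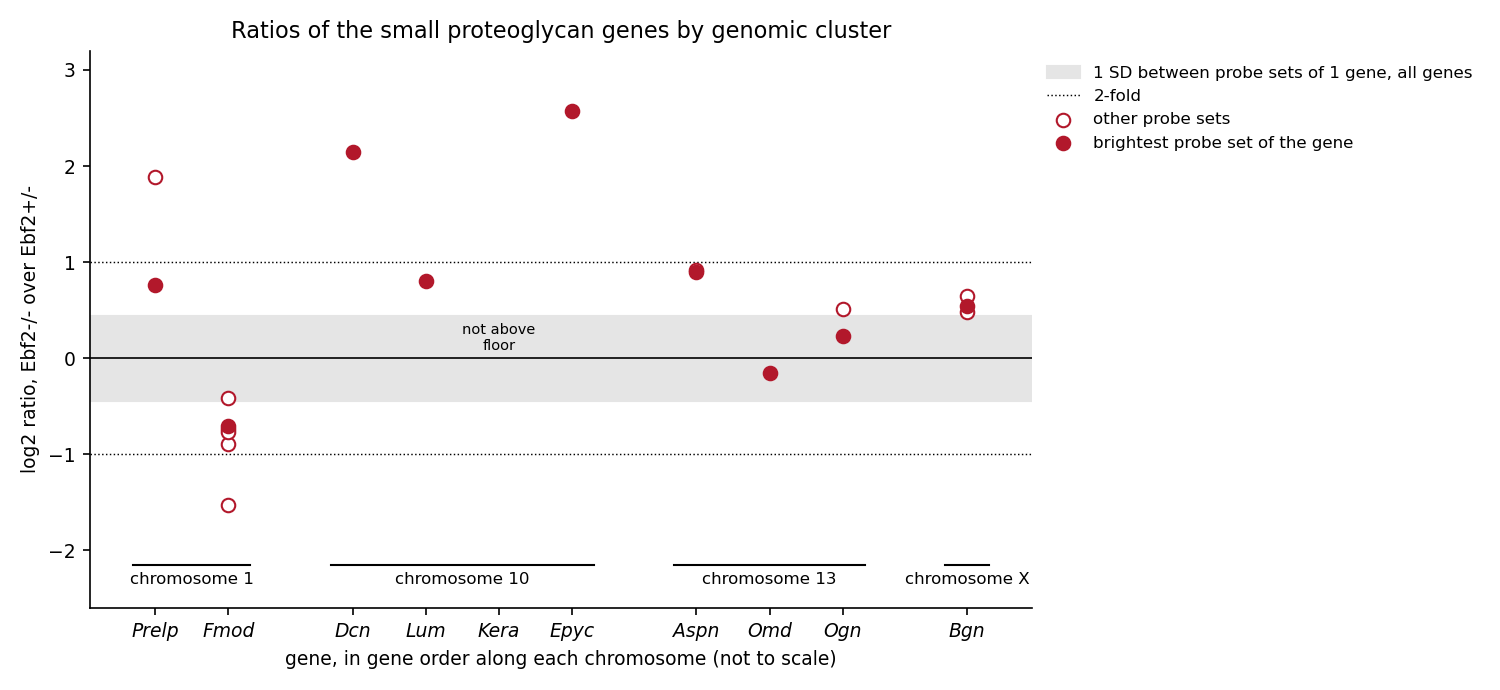
Log2 ratio of Ebf2-/- over Ebf2+/- for each probe set above the floor on both arrays, with genes in their order along each chromosome. Filled points are the brightest probe set of a gene, the grey band is 1 pooled SD between probe sets (0.44) and dotted lines mark 2-fold. Prelp and Fmod, neighbours on chromosome 1, lie on opposite sides of 0, and Dcn and Epyc at the ends of the chromosome 10 cluster lie above 2.

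Sequences upstream of annotated starts are shown for Prelp and Fmod, neighbours that lay on opposite sides of 0 by more than the SD between probe sets, for Epyc, the member with the highest ratio, and for Aspn and Bgn as an example each of a match to a motif. They are the 250 bases before a start in RefSeq, build GRCm38.p6, 5′ to 3′ on the strand of the gene. In all, 8 members had 9 windows, Epyc with 2 of them, while Dcn and Lum had none. Capitals mark matches to TATAAA or GGGCGG on either strand. The windows are chr1:133921402-133921651 (minus strand) for Prelp, chr1:134037004-134037253 (plus) for Fmod, chr10:97643818-97644067 (plus) for Epyc, chr13:49544193-49544442 (plus) for Aspn and chrX:73483351-73483600 (plus) for Bgn. The Epyc window belongs to the first of 2 starts listed for that gene.
Prelp: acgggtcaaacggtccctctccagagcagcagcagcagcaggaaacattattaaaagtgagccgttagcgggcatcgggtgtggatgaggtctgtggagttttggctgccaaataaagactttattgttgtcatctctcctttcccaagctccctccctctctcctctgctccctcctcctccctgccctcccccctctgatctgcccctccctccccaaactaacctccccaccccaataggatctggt
Fmod: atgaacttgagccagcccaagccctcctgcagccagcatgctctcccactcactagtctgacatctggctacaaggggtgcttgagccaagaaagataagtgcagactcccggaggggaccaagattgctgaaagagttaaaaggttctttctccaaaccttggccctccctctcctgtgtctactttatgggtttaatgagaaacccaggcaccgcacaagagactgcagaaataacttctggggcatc
Epyc: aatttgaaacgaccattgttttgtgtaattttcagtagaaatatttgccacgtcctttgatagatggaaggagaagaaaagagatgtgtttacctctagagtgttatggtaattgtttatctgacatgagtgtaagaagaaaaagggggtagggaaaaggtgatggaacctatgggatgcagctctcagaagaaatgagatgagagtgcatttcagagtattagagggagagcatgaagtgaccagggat
Aspn: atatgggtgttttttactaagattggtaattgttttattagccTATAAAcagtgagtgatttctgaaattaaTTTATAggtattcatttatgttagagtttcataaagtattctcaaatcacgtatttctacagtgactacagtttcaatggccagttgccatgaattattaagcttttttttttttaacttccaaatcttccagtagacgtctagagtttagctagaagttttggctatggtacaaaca
Bgn: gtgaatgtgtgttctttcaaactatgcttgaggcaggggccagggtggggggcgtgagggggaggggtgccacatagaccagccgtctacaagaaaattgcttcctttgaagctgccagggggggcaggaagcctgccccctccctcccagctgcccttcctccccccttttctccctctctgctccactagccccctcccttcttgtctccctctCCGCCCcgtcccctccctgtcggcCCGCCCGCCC

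The motif bound by EBF proteins, written CCCNNGGG, is its own reverse complement. It was found in 0 of the 9 member windows, beside 11.8% of all 32851 windows of this length. Dcn and Lum had no window, so these counts do not cover them. TATAAA was in 2 windows, those of Aspn and Ogn, beside 12.4% of all windows, and was searched on both strands. GGGCGG, the GC box bound by Sp1, was in 1 window, that of Bgn, with 3 matches of which 2 overlap, beside 32.7% of all. TGANTCA, the AP-1 site, was in 0 of 9, beside 6.75%. The last 2 motifs were chosen after the data were seen. The windows ranged from 30.0% G and C bases (Aspn) to 64.4% (Bgn), beside a median of 52.4% over all windows. No match says only that these letters are not in this window.

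Other leucine-rich repeat proteins of the matrix were next. Podn, encoding podocan, a collagen-binding relative, had 225 in Ebf2-/- cells, against 59.3 in Ebf2+/- cells, 3.80-fold higher. Chadl, a relative of chondroadherin, had 57.5 in Ebf2-/- cells and 49.2 in Ebf2+/- cells. These were the only measured genes of 8 listed, since Ecm2, Optc, Chad and Nyx stayed below background and 2 were not analysed here.

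Enzymes that build the sugar chains differed by 2-fold about as often as genes in general. Of 22 measured genes for chondroitin and dermatan sulphate chains 1 was at least 2-fold higher in Ebf2-/- cells, 2 were lower by as much and 19 differed by less, 86.4% beside 90.2% of all measured genes. The median log2 ratio was 0.06 (-0.07 with the arrays scaled to spike-in transcripts). Chst11, a chondroitin 4-O-sulphotransferase of cartilage, had 80.8 in Ebf2-/- cells, against 196 in Ebf2+/- cells, 2.43-fold lower. Fam20b, a kinase that primes the linkage region by phosphorylating xylose, had 154 in Ebf2-/- cells, against 329 in Ebf2+/- cells, 2.14-fold lower. Chst15, which adds sulphate to already 4-O-sulphated chains, had 82.8 in Ebf2-/- cells, against 40.9 in Ebf2+/- cells, 2.02-fold higher. Under quantile, lowess or spike-in scaling Chst15 fell short of 2-fold, at log2 ratios of 0.96, 0.99 and 0.89. With a pseudocount of 50 all 3 did, at -0.91 for Chst11, -0.89 for Fam20b and 0.55 for Chst15. Fam20b also did as a mean over its probe sets (-0.88).

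Of 6 measured genes for keratan sulphate chains 0 passed 2-fold in either direction (median log2 ratio 0.20, but -0.02 with lowess scaling). Any gene rarely passed this size, 6.3% of all measured ones upward and 3.46% downward. A count of 0 among 6 therefore does not set these enzymes apart. B4galt4, a galactosyltransferase, had 77.9 in Ebf2-/- cells, against 42.1 in Ebf2+/- cells. B4galt1, another one, had 387 in Ebf2-/- cells and 264 in Ebf2+/- cells. Chst2, a sulphotransferase, had 105 in Ebf2-/- cells, against 155 in Ebf2+/- cells. All 3 differed by less than 2-fold.

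The collagens to which these proteoglycans bind were split by type. In Ebf2-/- cells 5 of 14 measured genes were higher by 2-fold or more, beside 6.3% of all measured genes. Lower by as much were 2, beside 3.46%, and the median log2 ratio was 0.71. Col5a3, a minor chain of type V collagen, had 296 in Ebf2-/- cells, against 75.4 in Ebf2+/- cells, 3.93-fold higher. Col2a1 and Col11a2, chains of cartilage fibrils, were the 2 lower genes. Col2a1 had 2592 in Ebf2-/- cells, against 8542 in Ebf2+/- cells, 3.30-fold lower, and Col11a2 was 5.96-fold lower, with 37.4 in Ebf2-/- cells and 223 in Ebf2+/- cells. Among the higher ones was Col1a1, the main collagen of bone, with 12784 in Ebf2-/- cells, against 5478 in Ebf2+/- cells. A dimmer Col1a1 probe set went the other way, with 982 in Ebf2-/- cells and 1375 in Ebf2+/- cells, and the mean over probe sets was a log2 ratio of 0.37.

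Proteases that process or cleave small proteoglycans had the higher signal in Ebf2-/- cells in 7 of 8 measured genes, beside 52.1% of all measured genes. At least 2-fold higher in Ebf2-/- cells were 4, beside 6.3% of all measured genes. None of the 8 was lower by as much (0 genes), beside 3.46%. The median log2 ratio was 0.95. Tll1, a tolloid protease of the family that removes the biglycan propeptide, had 75.1 in Ebf2-/- cells, against 23.3 in Ebf2+/- cells, 3.22-fold higher. Mmp13, a collagenase, had 280.1 in Ebf2-/- cells, against 92.3 in Ebf2+/- cells, 3.04-fold higher. Adamts1 had 1131 in Ebf2-/- cells, against 396 in Ebf2+/- cells, 2.85-fold higher. Of these Tll1 was near the floor, and with a pseudocount of 50 its log2 ratio was 0.77.

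Among 13 measured growth factors and receptors bound by these proteoglycans 3 were higher by 2-fold or more in Ebf2-/- cells and 1 was lower by as much (median log2 ratio 0.29). Over all measured genes these shares were 6.3% and 3.46%. The higher ones were ligands of the TGF-beta superfamily. Bmp4 had 1504 in Ebf2-/- cells, against 506 in Ebf2+/- cells, 2.97-fold higher. Tgfb3 had 1346 in Ebf2-/- cells, against 539 in Ebf2+/- cells, 2.49-fold higher. Tgfb1 was dim, with 77.1 in Ebf2-/- cells and 25.8 in Ebf2+/- cells, 2.99-fold higher, and a pseudocount of 50 brought its log2 ratio to 0.75. The lower one was Cd14, a co-receptor of macrophages, with 53.9 in Ebf2-/- cells and 131 in Ebf2+/- cells.

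The large aggregating proteoglycans, which fill cartilage and loose matrix, went apart. Vcan, encoding versican, had 941 in Ebf2-/- cells, against 438 in Ebf2+/- cells, 2.15-fold higher. The difference was below 2-fold with spike-in scaling (log2 ratio 0.97) and as a mean over probe sets (0.54). Acan, encoding aggrecan, had 88.3 in Ebf2-/- cells, against 428 in Ebf2+/- cells, 4.85-fold lower. Epyc, a cartilage gene by its known expression, was thus higher while Acan and Col2a1 were lower on the same arrays. Comp, one of the chondrocyte markers below, was higher as well (log2 ratio 0.77). Whether the same cells carried these differences was not tested in the bulk preparations.

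**Figure D3:**
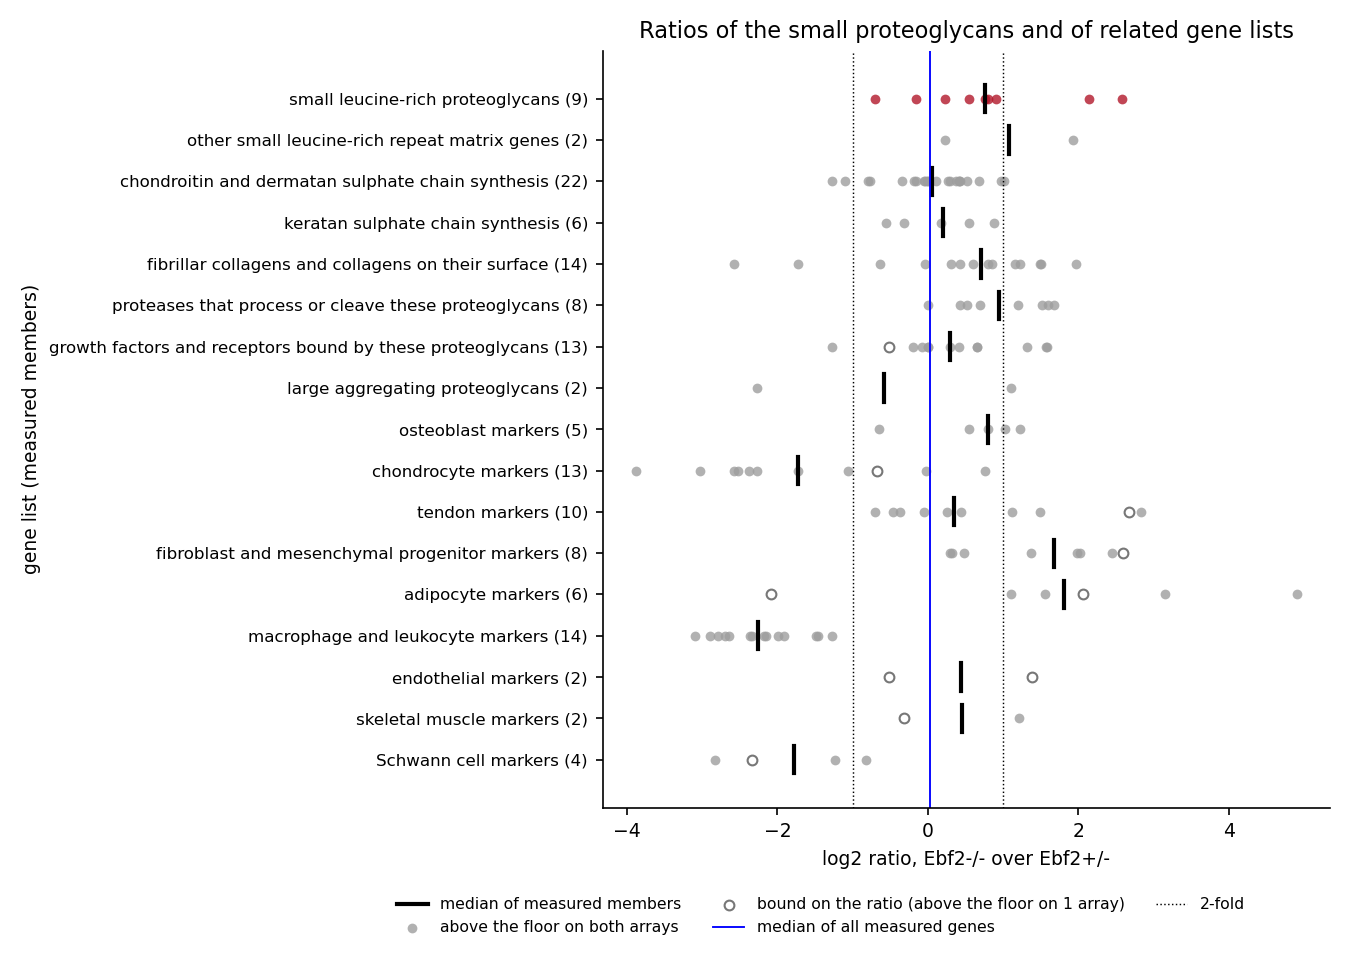
Log2 ratio of Ebf2-/- over Ebf2+/- for each measured gene of the small proteoglycans (red, top) and of 16 related lists (grey), with list medians as black bars, the median of all measured genes in blue and dotted lines at 2-fold. Open points are bounds for genes above the floor on 1 array only, and genes without a ratio are not drawn. The small proteoglycans spread from -0.70 to 2.58 with a median of 0.76, chondrocyte and macrophage markers lie mostly left of 0, and fibroblast and adipocyte markers mostly right of it.

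Markers of other cell types moved with genotype on the same arrays, and their part in the ratios of the small proteoglycans was not tested. Fibroblast and mesenchymal progenitor markers were at least 2-fold higher in Ebf2-/- cells for 5 of 8 measured genes and lower for 0. Over all measured genes 6.3% were higher by as much and 3.46% lower. The summed signal of the list was 12468 in Ebf2-/- cells, against 5457 in Ebf2+/- cells. Here and below, a sum takes the brightest probe set of each listed gene on the array, also of genes below background. Probe sets differ in brightness, so a sum mainly follows its brightest genes and only describes the list. Pdgfra was 5.45-fold higher by its brightest probe set and 2.59-fold and 1.49-fold by its others, with a mean log2 ratio of 1.47. Thy1 was 4.08-fold higher, and Dpt, encoding a decorin-binding protein, at least 6.05-fold. Dpp4 and Pi16 were below background on each array.

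Chondrocyte markers were at least 2-fold lower for 8 of 13 measured genes and higher for 0, beside 3.46% and 6.3% of all measured genes. Their summed signal was 4390.2 in Ebf2-/- cells, against 15563 in Ebf2+/- cells. Col9a3 was 14.8-fold lower. Hapln1 was 8.19-fold lower by its brightest probe set and 1.93-fold by another above both floors, with a mean log2 ratio over its probe sets of -1.55. The list did not fall as a whole. Comp was 1.70-fold higher, with 395 in Ebf2-/- cells, against 232 in Ebf2+/- cells, and Sox9 was nearly the same, with 209 and 213. Col10a1, Matn1, Matn3 and Snorc were below background. Macrophage and leukocyte markers were at least 2-fold lower for 14 of 14 measured genes, beside 3.46% of all measured genes. Their summed signal was 2046 in Ebf2-/- cells, against 8734 in Ebf2+/- cells. Itgb2 was 8.56-fold, Ptprc 7.45-fold and Msr1 6.89-fold lower, each within a few units of the floor in the knockout. Adding 50 to each signal gave log2 ratios of -1.85 for Itgb2, -1.72 for Ptprc and -1.54 for Msr1, and Msr1 averaged -1.70 over its probe sets.

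Tendon markers, of which Fmod is itself a listed member, were at least 2-fold higher for 4 of 10 and lower for 0. The shares over all measured genes were 6.3% and 3.46%. The summed signal of the list was 16402 in Ebf2-/- cells, against 16833 in Ebf2+/- cells. Without Fmod the sum was 10432 in Ebf2-/- cells, against 7113 in Ebf2+/- cells. Thbs4 was 7.12-fold, Chodl at least 6.39-fold and Col12a1 2.82-fold higher. The tendon regulator Scx differed by less than 2-fold, with 36.8 in Ebf2-/- cells and 38.0 in Ebf2+/- cells. Adipocyte markers were at least 2-fold higher for 5 of 6 measured genes and lower for 1, beside the same shares of 6.3% and 3.46%. Their summed signal was 2895 in Ebf2-/- cells, against 829 in Ebf2+/- cells. Fabp4 was 30.0-fold higher, but from an Ebf2+/- signal of 18.4 that stood just above the floor, and its other probe set gave at least 4.56-fold. Its log2 ratio of 4.91 became 3.55 when its probe sets were averaged and 3.14 when 50 was added to each signal. Cebpa was 8.91-fold higher (log2 ratio 3.16, or 2.16 with 50 added). Cd36 went the other way, at least 4.24-fold lower, with a log2 ratio of -2.09, or -1.16 averaged over probe sets.

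Osteoblast markers were at least 2-fold higher for 2 of 5 measured genes, Col1a1 and Alpl, beside 6.3% of all measured genes. At least 2-fold lower were 0, beside 3.46%. Sp7 went the other way, with 53.3 in Ebf2-/- cells, against 83.7 in Ebf2+/- cells, 1.57-fold lower. The summed signal was 45486 in Ebf2-/- cells, against 26253 in Ebf2+/- cells, and its brightest genes were Sparc, Col1a2 and Col1a1. This list shares Col1a1 and Col1a2 with the collagens. When its probe sets were averaged, Col1a1 fell short of 2-fold (0.37 in log2). Alpl, the bone alkaline phosphatase, had 51.8 in Ebf2-/- cells and 25.4 in Ebf2+/- cells, but fell short of 2-fold under each of the 3 other scalings (log2 ratio 0.89 to 0.96) and with a pseudocount of 50 (0.43). Schwann cell markers were at least 2-fold lower for 3 of 4 measured genes, beside 3.46% of all measured genes. These were Ngfr (7.14-fold, with a mean log2 ratio over probe sets of -1.60), Erbb3 (at least 5.04-fold) and S100b (2.35-fold, but just under 2-fold with a pseudocount of 50). Of endothelial and of skeletal muscle markers 2 each were measured. Tek was at least 2.61-fold higher and Kdr at least 1.42-fold lower, and Acta1 was 2.32-fold higher and Mylpf at least 1.24-fold lower. Tek fell short of 2-fold with lowess scaling (log2 ratio 0.96) and, like Acta1, with a pseudocount of 50 (0.85 and 0.70). The 3′ over 5′ signal ratio of beta-actin, a sign of RNA integrity, was 2.79 on the Ebf2-/- array and 1.97 on the Ebf2+/- array, and that of Gapdh 1.60 on the Ebf2-/- array and 1.30 on the Ebf2+/- array. Its part in the ratios was not tested either.

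The direction of each member was compared over changes in the processing. Under each of 10 settings Dcn, Bgn, Lum, Ogn, Prelp, Aspn and Epyc were higher and Fmod and Omd lower in Ebf2-/- cells. Changes of the floor left every one of these values as reported, since the signals were above each floor, so those settings do not check the direction. Dcn ranged from a log2 ratio of 2.02 to 2.20 and Epyc from 2.16 to 2.63. Prelp ranged most, from 0.63 with spike-in scaling to 1.88 without _s_at and _x_at probe sets, beside a reported 0.76.

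**Figure D4:**
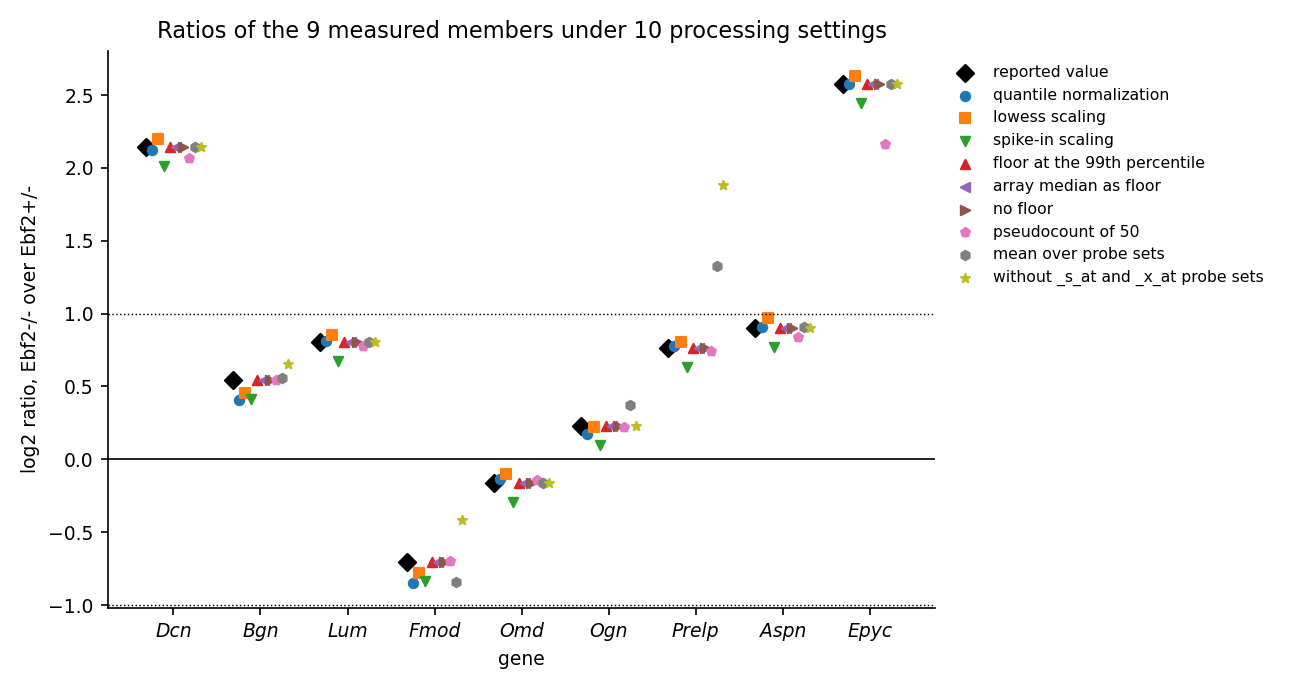
Log2 ratio of Ebf2-/- over Ebf2+/- for the 9 measured members, each under the reported setting (black) and 9 alternatives in scaling, background treatment and choice of probe set. Dotted lines mark 2-fold. Dcn and Epyc stay above 2, Prelp passes 2-fold when its probe sets are averaged or _s_at and _x_at probe sets are left out, and no member changes sign.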

How the data were processed

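Affymetrix Mouse Genome 430 2.0 arrays were hybridised with RNA of 1 Ebf2-/- and 1 Ebf2+/- sample, grouped by their genotype labels. The deposited values are linear MAS5 signal intensity per probe set, from the authors; the name MAS5 comes from the submitters' processing notes, without a version. The mean intensity without the lowest and highest 2% of values was 100.001 on both arrays, and this scaling hides any change common to most transcripts.

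Symbols came from the platform annotation: 34958 probe sets had 1 symbol, 932 several and 9211 were not listed. Values below the floor (95th percentile of 86 olfactory, vomeronasal and taste receptor probe sets on each array) were set to it before the log2 ratio, Ebf2-/- over Ebf2+/-, was taken. Measured genes, 11785 in all, exceeded the floor on 1 array or more. Of these 10057 were above it on both; where only 1 array was, the fold is a bound, written "at least". A gene is represented by its brightest probe set, taken by mean log2 signal.

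Ratios are described without p-values, and the number of arrays limits their precision. Named were all 10 members and, from each other list, the 3 measured genes with the largest ratio; other genes, such as Scx and Cd14, were picked with their values in view. The members and lists were chosen with earlier results of these data known. Alternatives were quantile, lowess (span 0.3) and spike-in scaling (18 probe sets), a floor at the 99th percentile, the array median as floor, no floor, a pseudocount of 50, the mean over probe sets, and leaving out _s_at and _x_at probe sets. The steps were tested on simulated data. Tools were Python 3.11.15, pandas 2.3.3 and statsmodels 0.14.6. Protein features were not analysed here.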

Additional observations from a re-analysis of the deposited data

How the results depend on the processing

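Every number rests on 1 array for each genotype, so no replicate could be left out. No paired analysis was possible because each genotype has a single array. Of 81 values of the 9 measured members under 9 alternatives, 79 moved by less than the SD between probe sets and 2 by more, both for Prelp, and 0 changed direction. Many of these values had little or no room to move. Changes of the floor left all 9 members as reported, since their signals were above each floor. Spike-in scaling shifts every ratio by 0.13, less than the SD of 0.44. Dcn, Lum, Omd and Epyc each had 1 probe set above the floor, so averaging or leaving out probe sets could not change them. The median log2 ratio of the members lay between 0.63 and 0.80. The count of members at least 2-fold higher was 2, or 3 when probe sets were averaged or _s_at and _x_at probe sets left out (Prelp added) and without a floor (Kera added, at signals below background); 0 were at least 2-fold lower under any of them. In Ebf2-/- cells 742 of all genes were higher by 2-fold or more and 408 lower. These became 3041 and 2616 without a floor, where all genes are tested, and 280 and 134 with a pseudocount of 50. Spike-in scaling lowers each log2 ratio by 0.13 and put the median of measured genes at -0.10, with 566 genes higher and 557 lower. Of 144 list medians, 33 moved by more than the SD between probe sets over the square root of the list size. The cause of these moves was not tested. The median of the large aggregating proteoglycans was -0.59 but 0.07 with the array median as floor, and that of the endothelial markers 0.44 but -1.06 without a floor; that of keratan sulphate genes was -0.15 without a floor and -0.05 where 50 was added to each signal. A pseudocount of 50 also lowered the size of dim ratios, among them Thbs4 (log2 ratio 1.79 in place of 2.83), Podn (1.33 in place of 1.93) and Col11a2 (-1.64 in place of -2.58). Low signals limit Kera, the second Dcn probe set and most endothelial and muscle markers.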
